A study of Mus musculus with 45 samples.

Results

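The transcripts described here are those of 10 genes of the circadian clock, selected by symbol from the count files: Per1, Per2, Per3, Cry1, Cry2, Arntl, Clock, Dbp, Nr1d1 and Ciart. They are 10 of the 24421 gene symbols counted, and all 10 passed the filter on low counts that left 15852 genes. Counts came from the nucleus accumbens of 45 female HDID-1 mice (generation S35.G37), a line bred for high drinking in the dark. Every mouse carried 2 viruses on both sides of the nucleus accumbens, 0.5 uL of each. One was rAAV2/5-CMV-Cre-GFP, whose CMV promoter is not specific to a cell type, and the other was rAAV2-hSyn-DIO-hM3Dq-mCherry, in which the neuronal hSyn promoter drives the excitatory designer receptor hM3Dq once Cre has turned it on. Mice drank ethanol or water in daily drinking-in-the-dark sessions for 6 weeks. The CNO groups received clozapine N-oxide, the drug that activates hM3Dq, at 1 mg/kg in weeks 2 to 5 and vehicle in weeks 1 and 6, and the vehicle groups received vehicle throughout. The groups were alcohol CNO (12 mice), alcohol vehicle (11), water CNO (11) and water vehicle (11), with 1 library per mouse. No group lacked the viruses, so effects shared by all injected mice cannot be seen here. The hour at which tissue was taken is not given in the sources used here.

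The clock is a loop of transcription and feedback that runs in most cells. CLOCK and BMAL1, the product of Arntl, bind E-box sequences and switch on the Per, Cry, Nr1d1, Dbp and Ciart genes. The PER and CRY proteins and CIART then inhibit CLOCK and BMAL1, REV-ERB alpha (Nr1d1) represses Arntl through ROR elements (ROREs), and DBP activates targets through D-boxes. In rodents, levels of many of these transcripts swing over the day in the striatum as in other tissues, and Per1 is also induced by neuronal activity.

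Promoter windows from RefSeq (assembly GRCm38.p6, 250 bases before to 50 bases after an annotated start) were matched for 9 of the 10 genes, 13 windows in all. Each was searched on both strands for the E-box CACGTG, which 7.15% of all 32851 windows hold, the E-prime box CACGTT (4.68%), the D-box TTATGTAA (0.938%), the RORE core TAGGTCA (2.61%) and the cyclic AMP response element TGACGTCA (1.79%). The 4 windows printed here show one example of each of the 3 elements found in the loop just described, and the E-box in both an output gene and a Per gene. Capitals mark the matches.
Ciart, chr3:95882179-95882478, minus strand: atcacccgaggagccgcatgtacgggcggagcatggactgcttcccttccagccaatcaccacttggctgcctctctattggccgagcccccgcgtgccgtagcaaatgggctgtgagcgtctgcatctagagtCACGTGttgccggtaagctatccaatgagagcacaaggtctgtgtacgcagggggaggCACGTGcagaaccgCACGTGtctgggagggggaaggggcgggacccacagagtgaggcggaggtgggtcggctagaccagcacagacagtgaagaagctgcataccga
Per1, chr11:69098699-69098998, plus strand: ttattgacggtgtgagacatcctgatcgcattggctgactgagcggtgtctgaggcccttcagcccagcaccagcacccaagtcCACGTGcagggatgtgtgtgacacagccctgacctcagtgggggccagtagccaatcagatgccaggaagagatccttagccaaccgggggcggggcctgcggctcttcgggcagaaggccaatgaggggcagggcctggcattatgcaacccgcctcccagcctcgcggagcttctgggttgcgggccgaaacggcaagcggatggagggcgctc
Per3, chr4:151044616-151044915, minus strand: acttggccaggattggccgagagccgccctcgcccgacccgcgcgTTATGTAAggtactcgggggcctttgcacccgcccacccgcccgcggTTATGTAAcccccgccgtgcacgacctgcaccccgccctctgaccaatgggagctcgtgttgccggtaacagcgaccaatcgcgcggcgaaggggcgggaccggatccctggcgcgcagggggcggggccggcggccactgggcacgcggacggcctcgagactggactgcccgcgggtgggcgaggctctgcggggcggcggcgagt
Arntl, chr7:113207261-113207560, plus strand: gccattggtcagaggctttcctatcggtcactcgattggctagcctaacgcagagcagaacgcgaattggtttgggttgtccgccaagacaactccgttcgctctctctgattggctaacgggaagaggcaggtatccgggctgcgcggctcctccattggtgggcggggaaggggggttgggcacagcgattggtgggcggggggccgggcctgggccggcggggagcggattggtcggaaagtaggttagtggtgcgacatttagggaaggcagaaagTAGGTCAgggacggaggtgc
The Ciart window held 3 E-boxes, beginning 116, 58 and 44 bases before the start, and the Per1 window held 1, beginning 166 bases before it. The Per3 window held 2 D-boxes, 205 and 158 bases before the start, and no E-box. The RORE core in the Arntl window lay 31 bases after the start. Cry1 held an E-box and an E-prime box, Cry2 and Nr1d1 held an E-prime box each, and the windows of Dbp and Clock and the other windows of Per1 and Arntl held none of the searched letters. A match of this kind is a description of the window only.

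Library size ran from 26839604 to 39521102 gene counts. The no-feature share, the percent of reads that HTSeq assigned to no counted feature, ran from 15.6 to 21.9%. Its group medians were 19.6% in alcohol CNO, 18.1% in alcohol vehicle, 17.5% in water CNO and 18.4% in water vehicle. All 12 markers of medium spiny neurons, the main cells of the nucleus accumbens, were detected, at a summed 5614 to 9196 CPM (reads of a gene per 1000000 gene counts, scaled by TMM). The 8 markers of cortical glutamatergic neurons ran more widely between libraries, from a summed 198 to 1042 CPM, both in water CNO. Alcohol vehicle replicate 5 stood apart, with markers of infiltrating immune cells at a summed 2130 CPM against group medians of 23.3 to 45.0 CPM, and results were therefore also computed without it and replicate 10 of that group. The numbers in the titles were 1 to 24 for alcohol and 25 to 46 for water, so fluid and title number cannot be told apart. The labels do not say what the order of these numbers is. In punches of tissue, fewer cells of a type and less RNA per cell cannot be told apart.

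The first question was how abundant the clock transcripts were and how far they varied. On a scale of CPM per kilobase of exonic sequence (GENCODE vM21, GRCm38), which allows genes to be compared, the median level over 45 libraries was highest for Nr1d1 at 59.1 and Dbp at 37.0. Cry2 (29.3), Per1 (24.0), Per2 (14.5), Cry1 (12.6) and Per3 (10.1) followed. Clock (9.43), Ciart (5.36) and Arntl (4.51) were the lowest. The ranges over libraries of neighbours in this order overlapped, except that Clock (lowest 8.26) lay wholly above Ciart (highest 7.89).

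Variation among mice set 5 of the genes apart from the other 5. The SD of log2 CPM about the group means was 0.31 for Ciart, 0.24 for Per3, 0.23 for Per2, 0.21 for Dbp and 0.18 for Per1. It was 0.11 for Cry1 and 0.09 to 0.10 for Cry2, Arntl, Clock and Nr1d1. The 1000 genes nearest in level had a median SD of 0.16 for Ciart, 0.12 for Arntl and about 0.11 for the other 8, and the median over all 15852 genes was 0.16. Thus the activator genes Arntl and Clock, the repressor genes Cry1 and Cry2 and the E-box target Nr1d1 varied no more than genes of their level, and the 5 variable genes varied more.

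**Figure D1:**
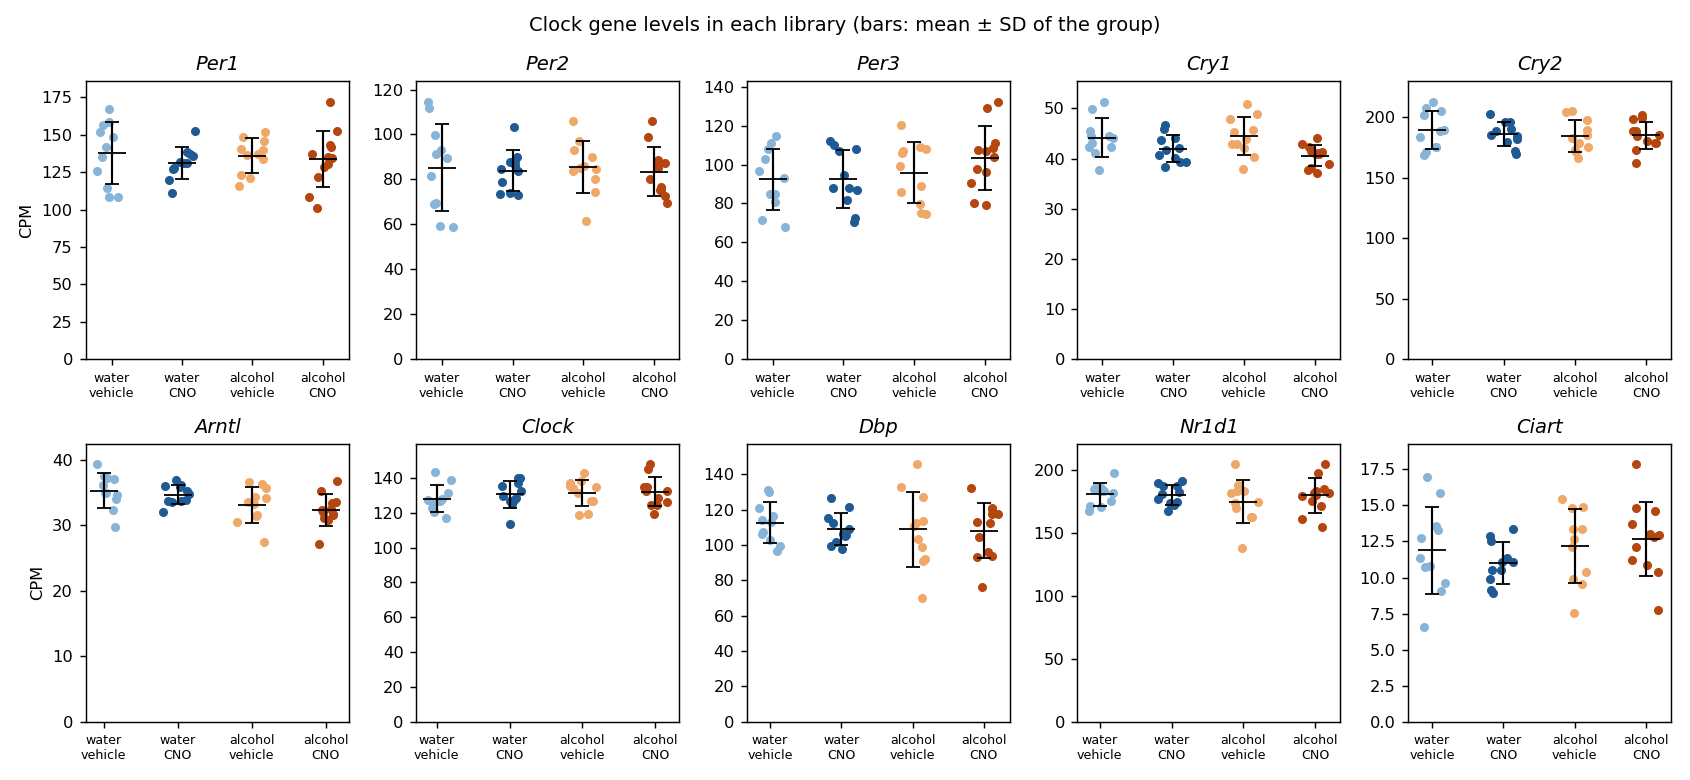
Level of each clock gene (CPM, linear axis from 0) in each of the 45 libraries by group, 1 point per mouse, with the mean and SD of the group as bars. The groups overlap for all 10 genes, and the spread within a group is wide for Ciart, Per2, Per3, Dbp and Per1 and narrow for Clock, Cry2 and Nr1d1.

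The period genes encode the inhibitors that accumulate as the loop turns. Per1 (ENSMUSG00000020893.17, chromosome 11, 69095217 to 69109960, plus strand) ranged from 101 through a median of 135 to 172 CPM in alcohol CNO and from 116 through 137 to 152 CPM in alcohol vehicle. In water CNO it ranged from 111 through 131 to 153 CPM, and in water vehicle from 108 through 142 to 167 CPM. The 4 groups overlapped almost wholly, with the widest spreads in alcohol CNO and water vehicle. Per2 (ENSMUSG00000055866.9, chromosome 1, 91415982 to 91459324, minus strand) ranged from 69.3 through 82.6 to 106 CPM in alcohol CNO and from 61.3 through 85.1 to 106 CPM in alcohol vehicle. Its range was 72.8 through 84.8 to 103 CPM in water CNO and 58.6 through 89.3 to 115 CPM in water vehicle. Both the lowest and the highest library of all were water vehicle mice. Per3 (ENSMUSG00000028957.12, chromosome 4, 151003652 to 151044665, minus strand) ranged from 79.0 through 105 to 132 CPM in alcohol CNO and from 74.6 through 99.3 to 120 CPM in alcohol vehicle. In water CNO it ranged from 70.6 through 87.96 to 112 CPM and in water vehicle from 68.1 through 93.1 to 115 CPM. The alcohol CNO group reached highest, but its lower mice lay among those of the other groups.

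The cryptochromes partner the PER proteins in repression. Cry1 (ENSMUSG00000020038.10, chromosome 10, 85131700 to 85185064, minus strand) ranged from 37.1 through 41.0 to 44.2 CPM in alcohol CNO and from 37.9 through 43.9 to 50.8 CPM in alcohol vehicle. Among water drinkers the range was 38.3 through 41.8 to 46.6 CPM with CNO and 37.7 through 44.0 to 51.4 CPM with vehicle. Both CNO groups lacked the highest values seen in the vehicle groups, and all 4 overlapped at the low end. Cry2 (ENSMUSG00000068742.11, chromosome 2, 92403646 to 92434043, minus strand) lay between 162 and 213 CPM in all libraries, with group means of 184 to 189 CPM.

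Arntl and Clock encode the activator pair. Arntl (ENSMUSG00000055116.8, chromosome 7, 113207465 to 113314126, plus strand) ranged from 27.2 through 32.2 to 36.7 CPM in alcohol CNO and from 27.4 through 33.6 to 36.6 CPM in alcohol vehicle. In water CNO it ranged from 32.0 through 34.7 to 36.9 CPM and in water vehicle from 29.7 through 35.0 to 39.3 CPM. The lowest mice were alcohol drinkers and the highest was a water drinker, with most values shared. Clock (ENSMUSG00000029238.11, chromosome 5, 76209868 to 76304792, minus strand) varied least of the 10 genes, between 113 and 148 CPM.

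The output genes carry rhythm to other genes or feed back on the loop. Dbp (ENSMUSG00000059824.12, chromosome 7, 45705088 to 45710203, plus strand), a transcription factor of the PAR bZIP family, ranged from 76.4 through 113 to 132 CPM in alcohol CNO and from 69.8 through 111 to 146 CPM in alcohol vehicle. Water drinkers ranged from 97.5 through 106 to 127 CPM with CNO and from 96.6 through 113 to 131 CPM with vehicle. The groups overlapped, and the mice below 90 CPM were alcohol drinkers. Ciart (ENSMUSG00000038550.10, chromosome 3, 95878503 to 95882251, minus strand) ranged from 7.77 through 12.9 to 17.8 CPM in alcohol CNO and from 7.57 through 12.7 to 15.5 CPM in alcohol vehicle. In water CNO it ranged from 8.91 through 11.1 to 13.4 CPM and in water vehicle from 6.56 through 11.4 to 17.0 CPM. Its highest library held 2.72 times the level of its lowest, the widest ratio of the 10 genes, on 200 to 613 reads. Nr1d1 (ENSMUSG00000020889.11, chromosome 11, 98767932 to 98775333, minus strand), the gene of a nuclear receptor that represses transcription, lay between 139 and 205 CPM, with group means of 175 to 181 CPM. Nr1d1 shares 263 exonic bases (8.55%) with Thra on the opposite strand, and Dbp shares 539 (18.0%) with Sphk2. Since the strand setting of the counting is not given, reads from these bases cannot be assigned with certainty. Across the 45 libraries, r was 0.63 between Nr1d1 and Thra and -0.26 between Dbp and Sphk2.

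The next comparisons asked whether fluid or treatment changed any clock gene. In edgeR's quasi-likelihood test over all 15852 genes, 0 of the 10 clock genes passed an adjusted p of 0.05 in any of the 7 contrasts. With CNO set against vehicle and both fluids averaged, 0.889% of all genes were called. The share called was 0.871% for CNO in alcohol drinkers and 0.0694% for CNO in water drinkers. It was 0% for alcohol against water under vehicle, under CNO and averaged, and 0% for the interaction. At an unadjusted p under 0.05, 1 of the 10 genes passed in each averaged contrast, against 9.3% of all genes for CNO and 12% for alcohol. One also passed for CNO in alcohol drinkers (7.32% of all genes) and for alcohol under CNO (6.5%), and 0 passed for CNO in water drinkers (5.54%), alcohol under vehicle (8.36%) and the interaction (3.13%). DESeq2 and limma's voom also called 0 of the 10 in every contrast.

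The gene with the smallest p for CNO was Cry1. Its averaged log2 fold change was -0.10 ± 0.03 (SE), with a 95% interval from -0.17 to -0.04 (edgeR unadjusted p = 0.00227, adjusted p = 0.129). The change was -0.13 ± 0.04 in alcohol drinkers (adjusted p = 0.218) and -0.07 ± 0.05 in water drinkers (adjusted p = 0.864), and the interaction, -0.06 ± 0.06, had an adjusted p of 0.983 in edgeR. It passed in 2 of the 45 fits that left out 1 library: the edgeR adjusted p was 0.0484 without alcohol vehicle replicate 11 and also without water vehicle replicate 3, and up to 0.199 with others left out. Under 10 other settings it ran from 0.074 with DESeq2 to 0.426 when replicates 5 and 10 of alcohol vehicle were dropped together with replicate 9 of water vehicle.

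For alcohol against water it was Arntl. Its averaged log2 fold change was -0.10 ± 0.03 (SE), with a 95% interval from -0.16 to -0.03 (edgeR unadjusted p = 0.00364, adjusted p = 0.281). It was -0.10 ± 0.04 under CNO and -0.09 ± 0.04 under vehicle (edgeR adjusted p = 0.738 and 0.597). With alcohol set against water, title number moves with fluid as described above.

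The other 8 genes had 95% intervals that held 0 in both averaged contrasts. For CNO they ran from -0.05 for Per1 to 0.06 for Per3, and for alcohol from -0.03 for Dbp to 0.12 for Ciart, all on the log2 scale. Ciart (0.12 ± 0.09) and Per3 exceeded Arntl in size with larger standard errors. The 95% intervals of all 10 genes lay between -0.20 and 0.20 for CNO and between -0.16 and 0.30 for alcohol, so larger averaged changes lie outside them. The widest intervals were those of Ciart, Per3, Per2 and Dbp. Per3 was 0.11 ± 0.07 higher in alcohol drinkers on the averaged estimate (edgeR adjusted p = 0.543), and 0.03 with the no-feature share as a covariate. The median log2 change of the 10 genes was -0.03 for CNO and -0.01 for alcohol, against 0.00 over all genes in both.

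**Figure D2:**
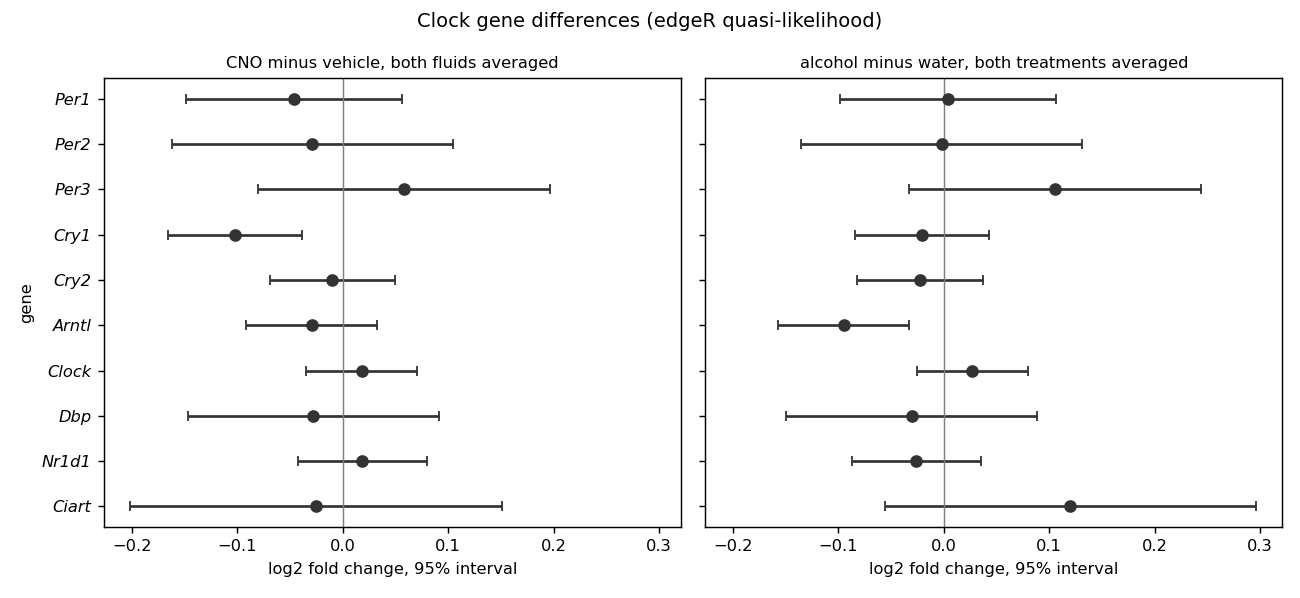
Log2 fold change with its 95% interval (edgeR) for each clock gene, CNO minus vehicle on the left and alcohol minus water on the right, each averaged over the other factor. Only Cry1 on the left and Arntl on the right have intervals that leave out 0, and neither passed adjustment over 15852 genes.

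A further set of 31 clock genes held 9 transcription factors of the loops, 7 output genes and 15 enzymes and cofactors that act on PER and CRY. In edgeR's test 0 of 31 was called in any of the 7 contrasts, against the shares of all genes given above. The smallest averaged p-values for alcohol were those of Usp2, a rhythmic ubiquitin protease (log2 change 0.08 ± 0.03, edgeR adjusted p = 0.330), Fbxl21, a ubiquitin ligase subunit that acts on CRY (0.14 ± 0.06, adjusted p = 0.337), and Nfil3, a D-box repressor (-0.14 ± 0.07, adjusted p = 0.378). For CNO they were those of Nampt, an enzyme of NAD synthesis (-0.06 ± 0.03, edgeR adjusted p = 0.542), Csnk2a1, a kinase subunit (-0.03 ± 0.02, adjusted p = 0.650), and Timeless (-0.08 ± 0.05, adjusted p = 0.666). At an unadjusted p under 0.05, 3 of 31 passed for averaged alcohol (12% of all genes) and 0 of 31 for averaged CNO (9.3%). The highest count was for alcohol under CNO, 4 of 31 against 6.5% of all genes, which were Nfil3 (-0.25 ± 0.09), Tipin (0.23 ± 0.09), Fbxl21 (0.20 ± 0.08) and Usp2 (0.10 ± 0.05), with edgeR adjusted p of 0.734 to 0.752.

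The largest structure in these genes lay among mice of the same group. With group means removed, 18 of the 45 pairs of clock genes were correlated over the 45 libraries at an adjusted permutation p under 0.05, and all 18 were positive. Their smallest r was 0.42, and 9.18% of all 125635026 pairs of genes tested reached that value. The median r was 0.29 over the 45 clock pairs and -0.01 over all pairs. By Spearman's rho 21 pairs passed, the same 18 among them.

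The 2 highest r values joined Dbp to Ciart and to Nr1d1, all 3 of them E-box outputs. Dbp and Ciart had r = 0.78 and rho = 0.78 (both permutation p = 1e-05, the smallest that 100000 permutations can give, adjusted p = 9e-05). Dbp and Nr1d1 had r = 0.77 and rho = 0.68 (permutation p = 1e-05 for both, adjusted p = 9e-05). Nr1d1 and Ciart had r = 0.56 and rho = 0.55 (permutation p = 0.00016 and 0.0003, adjusted p = 0.000637 and 0.00104). Without the 2 libraries farthest from the median of the first gene, r was 0.69, 0.65 and 0.47. One mouse, alcohol vehicle replicate 6, was the lowest of 45 for both Dbp (69.8 CPM) and Nr1d1 (139 CPM) and ranked 2 of 45 for Ciart (7.57 CPM), while it ranked 42 of 45 from the lowest for Per2 (106 CPM). Its library was also the smallest of the 45, at 26839604 gene counts.

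A second set joined Per1, Per2 and Cry2. Per1 and Cry2 had r = 0.74 and rho = 0.72, and Per1 and Per2 had r = 0.70 and rho = 0.77 (permutation p = 1e-05, adjusted p = 9e-05 for each), and r was 0.70 and 0.66 without the 2 farthest libraries. Per2 and Cry2 had r = 0.62 and rho = 0.64 (permutation p = 0.00011 and 8e-05, adjusted p = 0.000495 and 0.000327). Cry2 also tied this set to the outputs, with r = 0.70 to Ciart, 0.60 to Dbp and 0.47 to Nr1d1 (rho = 0.71, 0.59 and 0.47; adjusted permutation p = 9e-05, 0.000225 and 0.00368 for r). Per1 was related to Ciart at r = 0.67 and to Dbp at 0.47 (rho = 0.60 and 0.42; adjusted permutation p = 0.00015 and 0.00222).

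Per2 was also related to Arntl and Cry1. Its r was 0.58 with Arntl and 0.42 with Cry1 (rho = 0.62 and 0.35; adjusted permutation p = 0.000637 and 0.0271), and 0.21 with Dbp and 0.00 with Nr1d1, neither of which passed. Arntl, whose transcription REV-ERB alpha represses, had r = -0.01 with Nr1d1 (rho = -0.10, adjusted permutation p = 0.991). Clock passed with none of the other 9, and its lowest r was -0.34 with Dbp (rho = -0.30, adjusted permutation p = 0.0638).

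**Figure D3:**
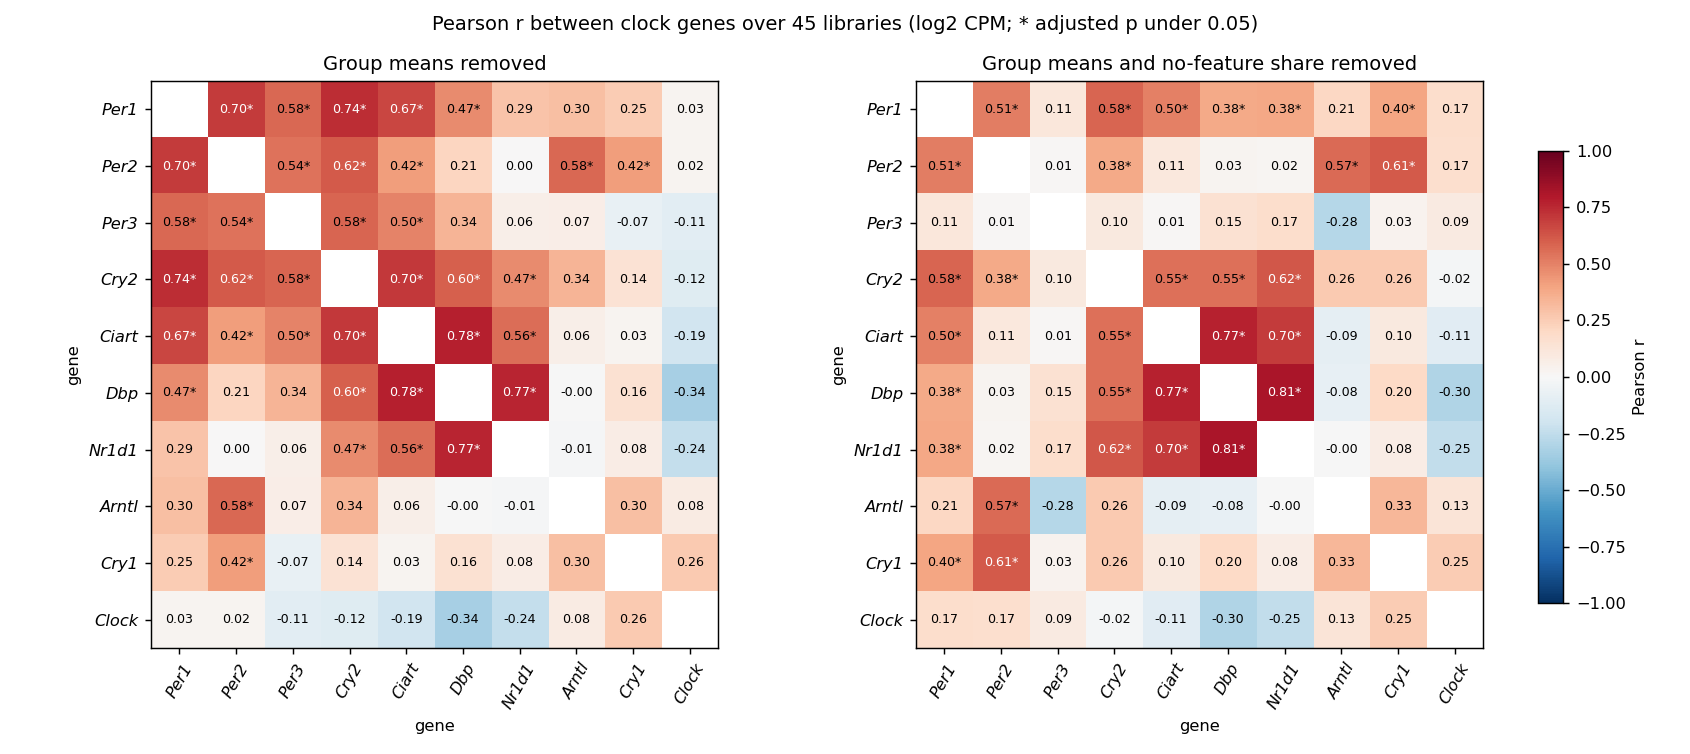
Pearson r between each pair of the 10 clock genes over 45 libraries on log2 CPM, with group means removed (left) and with the no-feature share removed as well (right). On the left 18 pairs pass and the Per3 row holds 4 of them, and on the right 15 pass and the Per3 row holds 0.

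Among these genes Per3 stood apart by its relation to a property of the libraries. Its r with the no-feature share was 0.88 and rho 0.90 (permutation p = 1e-05 for both, adjusted p = 0.0002 for r over 20 relations), and r was 0.87 without the 2 farthest libraries and 0.83 to 0.93 within each of the 4 groups. Cry2, Per2, Per1 and Ciart were related to that share as well, at r = 0.62, 0.62, 0.61 and 0.56 (rho = 0.68, 0.65, 0.65 and 0.59; largest adjusted permutation p 0.00068), and 29.2% of all genes reached the smallest of these 5 values in size. Nr1d1 was not, at r = -0.03, and was instead related to library size at r = 0.38 (rho = 0.33, adjusted permutation p = 0.0382 for r and 0.0714 for rho). In size, this r was at percentile 99.0 among all genes. Dbp had r = 0.33 with library size, at percentile 97.4 (rho = 0.23, adjusted permutation p = 0.0811 for r and 0.274 for rho). The lowest no-feature share of all, 15.6%, belonged to water vehicle replicate 2, which was the lowest of 45 for Per2 (58.6 CPM), Per3 (68.1 CPM) and Ciart (6.56 CPM).

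With the no-feature share removed, 15 pairs passed, and 5.87% of all gene pairs reached their smallest r. Of the 18 pairs, 13 still passed. The 5 lost were all 4 pairs of Per3 (Per1, Per2, Cry2 and Ciart, with r from 0.01 to 0.11) and Per2 with Ciart (r = 0.11). The pairs among Dbp, Ciart and Nr1d1 passed again, at r = 0.81 for Dbp and Nr1d1, 0.77 for Dbp and Ciart and 0.70 for Nr1d1 and Ciart. Per2 and Cry1 went from 0.42 to 0.61, and Cry2 and Nr1d1 from 0.47 to 0.62. The second set was weaker: Per1 and Cry2 went from 0.74 to 0.58, Per1 and Per2 from 0.70 to 0.51, and Per2 and Cry2 from 0.62 to 0.38. Ciart went from 0.70 to 0.55 with Cry2 and from 0.67 to 0.50 with Per1. Dbp went from 0.60 to 0.55 with Cry2 and from 0.47 to 0.38 with Per1, and Per2 and Arntl stood at 0.57. What the no-feature share stands for in these libraries was not tested. The pairs were not recomputed with library size removed.

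**Figure D4:**
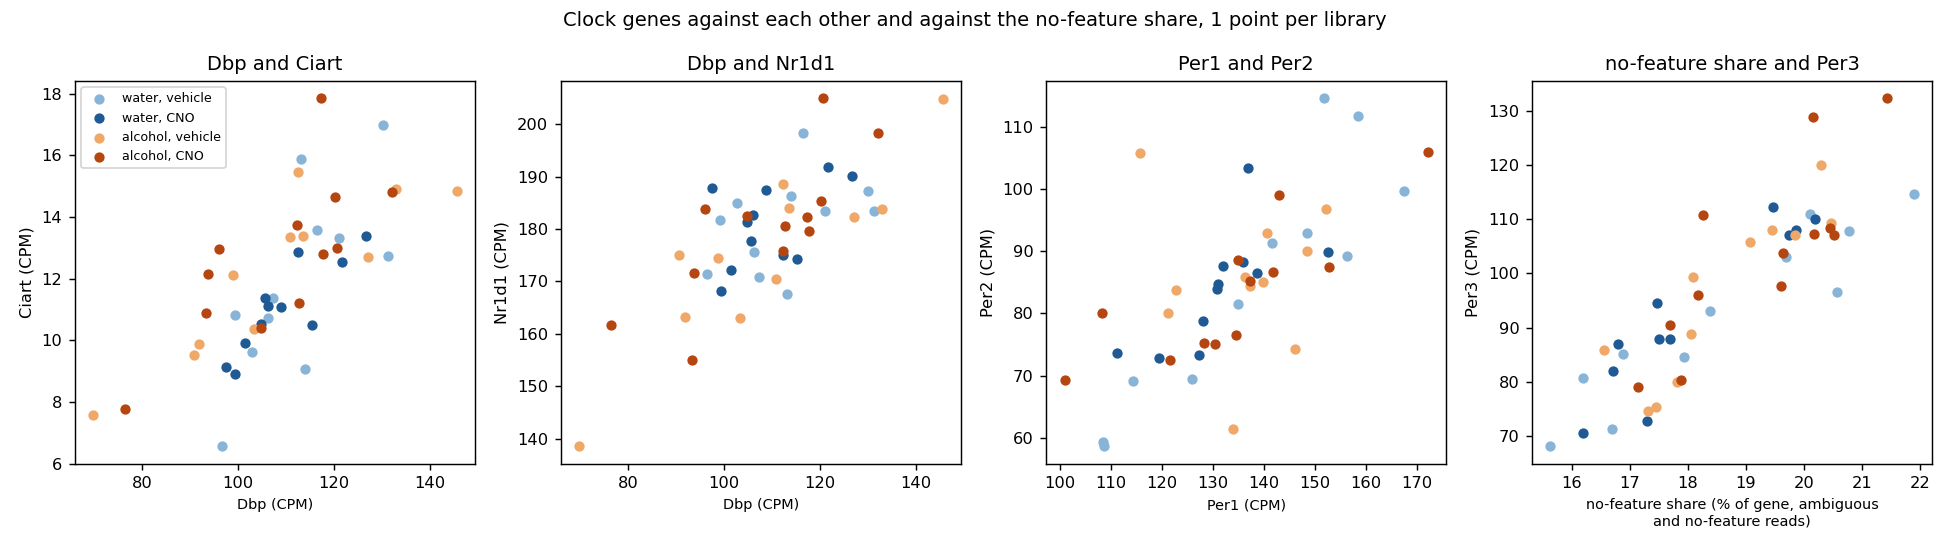
Each of the 45 libraries by group, from left to right Ciart against Dbp, Nr1d1 against Dbp, Per2 against Per1 (all in CPM), and Per3 (CPM) against the no-feature share (percent). Ciart and Nr1d1 are higher where Dbp is higher, Per3 is higher where the no-feature share is higher, and r between Per1 and Per2 ran from -0.08 (alcohol vehicle, light orange) to 0.93 (water vehicle, light blue), a difference that did not pass adjustment.

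Within single groups of 11 or 12 mice, 22 of 180 relations passed by Pearson's r and 15 by Spearman's rho. The counts that follow are by r. There were 9 in water vehicle (2.14% of all gene pairs reached their smallest r there), 7 in alcohol CNO (1.64%), 5 in alcohol vehicle (1.04%) and 1 in water CNO (0.429%). By r, Dbp and Ciart passed in 3 groups (0.78, 0.90 and 0.86 in alcohol CNO, alcohol vehicle and water CNO) and stood at 0.73 in water vehicle. By rho it was 0.73, 0.85, 0.80 and 0.68 in the same order and passed in alcohol vehicle alone (adjusted permutation p = 0.0298), while Per1 and Per2 passed by rho in the 3 groups other than alcohol vehicle (adjusted permutation p = 0.018 in each). Of the 18 pairs, 16 had a positive r in all 4 groups. The exceptions were Per1 with Per2 (r = -0.08, rho = 0.22) and Per2 with Ciart (r = -0.27, rho = 0.00) in alcohol vehicle, so neither was negative there by rho. Per2 with Ciart had r = 0.10 and rho = -0.07 in water CNO. Per1 and Per2 had r = 0.93 in water vehicle, 0.81 in alcohol CNO, 0.73 in water CNO and -0.08 in alcohol vehicle, and Per1 and Nr1d1 had r = 0.85 in alcohol vehicle and -0.31 in water CNO. Permuting mice between groups, the difference in r among groups passed for 0 of 45 pairs. The smallest adjusted permutation p was 0.265, shared by Per1 with Per2, Per1 with Nr1d1 and Per2 with Ciart, and 4 pairs had an unadjusted p under 0.05.

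**Figure D5:**
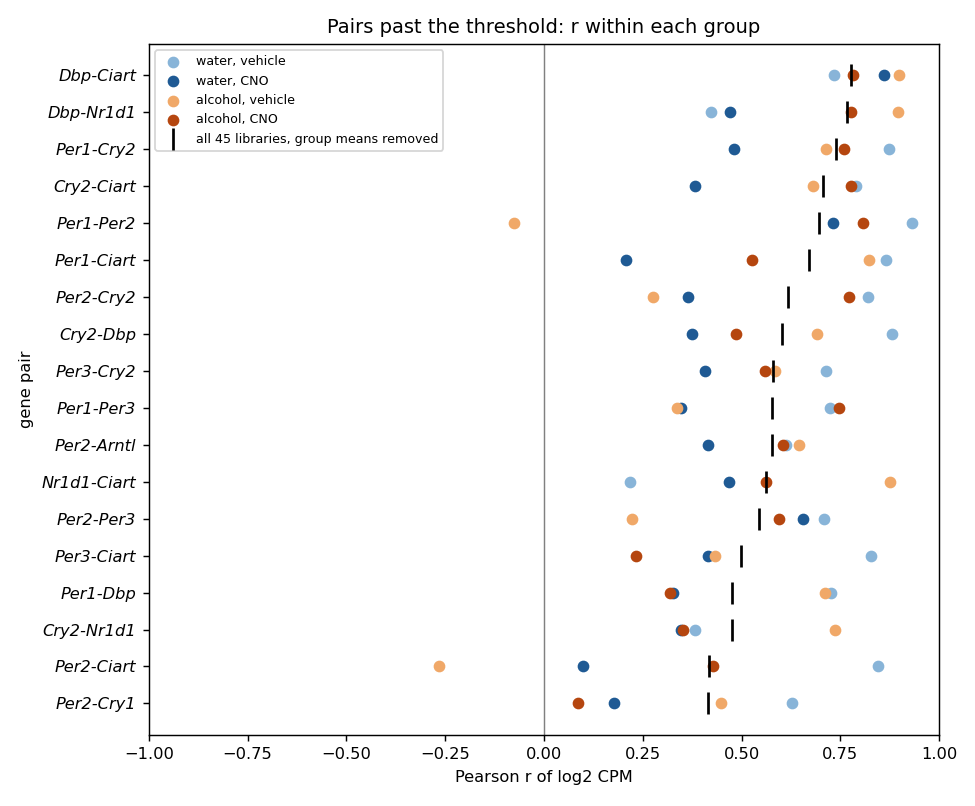
Pearson r of log2 CPM within each group (coloured points) and over all 45 libraries with group means removed (black bars), for the 18 pairs that passed. Points left of 0 are Per1-Per2 and Per2-Ciart in alcohol vehicle, at -0.08 and -0.27, and no pair differed between groups past adjustment.

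The same libraries were examined for other genes that moved with the clock set. Among 310 relations between the 10 genes and the 31 further clock genes, 69 passed, 39 positive and 30 negative, and by rho 67 passed. The 69 are 22.3% of the family. Of relations between the 10 and all other genes, 28.4% reached the smallest of the 69 in size. The 28.4% counts r of either sign without a test, so it is not at the threshold of the 22.3%. The relations named next are given as a description. Whether they are particular to clock genes was not tested. Dbp, Ciart and Nr1d1 were related to Usp2, at r = 0.66 for Ciart, 0.64 for Dbp and 0.54 for Nr1d1 (rho = 0.68, 0.67 and 0.53). They were also related to Bhlhe41, an E-box repressor, at 0.60, 0.66 and 0.45 (rho = 0.65, 0.64 and 0.40), and to Tef, the PAR bZIP relative of Dbp, at 0.40, 0.55 and 0.60 (rho = 0.40, 0.44 and 0.47). Adjusted permutation p for r in these 9 relations was 0.0401 at most, and with the no-feature share removed their r was 0.50 to 0.62. Dbp was negatively related to Nfil3, which represses at the D-boxes that DBP activates, at r = -0.44 and rho = -0.41 (permutation p = 0.00468 and 0.00888, adjusted p = 0.0290 and 0.0434). Clock followed a different set, with r = 0.76 for Gsk3b, a kinase of clock proteins, 0.57 for Wee1 and 0.56 for Btrc (rho = 0.66, 0.45 and 0.45). Per3 had 15 of the 69 relations, 11 of them negative. The lowest, -0.74 with Nampt and -0.71 with Lgalsl (rho = -0.79 and -0.73), became -0.47 and -0.17 with the no-feature share removed.

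Per1 moved with the immediate early genes, the transcripts that rise within minutes of neuronal activity. Of 15 such genes, 12 were positively related to Per1. Of all other genes, 30.8% reached in size, with either sign, the smallest r called in this family of 29 relations. The highest were Egr1 (r = 0.78, rho = 0.71, adjusted permutation p = 0.000145 and 0.00029), Npas4 (r = 0.66, rho = 0.65, adjusted permutation p = 0.000145 and 0.00029) and Nr4a1 (r = 0.59, rho = 0.59, adjusted permutation p = 0.000986 and 0.000652). Egr1 had the highest r with Per1 of all 13203 genes compared, and r was 0.54 to 0.89 in the 4 groups, 0.74 without the 2 farthest libraries and 0.78 with the no-feature share removed. The median r of the 15 genes was 0.50, and 0.56 with that share removed. Of 14 genes induced by glucocorticoids, which also induce Per1, 3 passed: Plin4, a lipid droplet protein, at 0.45, and the metallothioneins Mt2 and Mt1 at -0.45 and -0.43 (rho = 0.51, -0.55 and -0.57; largest adjusted permutation p 0.0119 for r). With the no-feature share removed, Plin4 was at 0.24, Mt1 at -0.25 and Mt2 at -0.45.

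The summed level of the immediate early genes was related to Per1 at r = 0.69, Per2 at 0.48, Cry2 at 0.44, Arntl at 0.44 and Ciart at 0.42 (rho = 0.62, 0.47, 0.42, 0.44 and 0.36; adjusted permutation p for r from 0.00055 to 0.0489), and 6.02% of all genes reached the cutoff for that list. This family held 110 relations of the 10 genes with 11 lists, of which 20 (18.2%) passed by r and 24 by rho. Of relations of all genes with these lists, 20.7% reached the smallest of the 20 in size. That share counts r of either sign without a test, so the 2 shares are at unlike thresholds. Ciart with endothelial markers, for example, reached that size (r = 0.41) and did not pass (adjusted permutation p = 0.0543). The cell marker values below are given as a description. Whether they are particular to the clock genes was not tested. The shares of all genes given for single lists also count r of either sign. The summed level of 8 astrocyte markers was negatively related to Cry2 (r = -0.67), Per3 (-0.62), Ciart (-0.60), Per1 (-0.56) and Per2 (-0.51), with rho from -0.68 to -0.56. That of 7 endothelial markers was positively related to Per2 (r = 0.60), Per3 (0.55) and Per1 (0.45), with rho of 0.60, 0.54 and 0.44. The largest adjusted permutation p for r among these 8 was 0.0334. These lists were themselves related to the no-feature share, astrocytes at r = -0.75 and endothelium at 0.73, and 48.3% and 43.1% of all genes reached the same cutoff with them. Medium spiny neuron markers were related to Dbp (r = 0.49), Cry1 (0.44) and Ciart (0.40; rho = 0.53, 0.47 and 0.42, adjusted permutation p 0.0482 at most for r), with 24.7% of all genes at the cutoff. The remaining 4 relations were those of Per3 with cortical glutamatergic neuron markers (-0.42, 26.5%), Per3 and Per1 with microglial markers (-0.40 and -0.34, 27.7%) and Cry2 with oligodendrocyte markers (-0.45, 11%). With the no-feature share removed, 4 of 110 relations passed by r and 8 by rho. Of relations of all genes with these lists, 6.52% reached the smallest of the 4 in size, without a test. The 4 were the immediate early genes with Per1 (0.73) and Per2 (0.48), the medium spiny neuron markers with Cry1 (0.46) and the endothelial markers with Nr1d1 (-0.44). By rho the 4 added were Dbp with medium spiny neuron markers (0.53), Cry2 with oligodendrocyte markers (-0.45), Nr1d1 with immune markers (-0.45) and Ciart with ependymal markers (-0.47). The part of cell makeup in the relations among clock genes was not tested beyond these values. With neuron marker levels removed, 18 pairs passed, 17 of them the same.

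Genes outside the clock that were most like a member differed between the sets. For Per2 they were Mcf2l (r = 0.82), Tnfrsf25 (0.79) and Dnajc1 (0.78), and the lowest was Tceal1 (-0.80). For Dbp they were Ssbp4 (0.76), Rps6ka4 (0.73) and C2cd2l (0.73), with Farsb lowest (-0.69), and for Nr1d1 they were Rpusd1 (0.72), Ydjc (0.71) and Kctd13 (0.70), with Xpo1 lowest (-0.65). Ciart was most like Gm996 (0.74), Kcnh4 (0.72) and Grik5 (0.72) and least like Fabp7 (-0.75), a fatty acid binding protein of astrocytes. For Arntl they were Wipf3 (0.63), Dmtf1 (0.62) and Msrb3 (0.61), with Dnajc27 lowest (-0.68), and for Per1, after Egr1, Taok2 and Zfhx2 (both 0.74), with Snx4 lowest (-0.72). These values are over 45 libraries with group means removed and were ranked among 13203 genes without a test. With the no-feature share removed as well, the genes named for Per2 were at 0.62 to 0.69 and -0.66. Those for Ciart were at 0.55 to 0.59 and -0.61, and Taok2, Zfhx2 and Snx4 were at 0.59, 0.54 and -0.51 with Per1. Those for Dbp were at 0.70 to 0.73 and -0.66, for Nr1d1 at 0.70 to 0.72 and -0.66, and for Arntl at 0.58 to 0.61 and -0.67.

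Title number, tested within each fluid, was related to 0 of 20 gene and fluid combinations past adjustment. The highest values were in water drinkers (n = 22), Per2 at r = 0.58 and rho = 0.55 (permutation p = 0.00696 and 0.0123, adjusted p = 0.139 and 0.153) and Per1 at r = 0.54 and rho = 0.53 (permutation p = 0.0141 and 0.0153, adjusted p = 0.141 and 0.153). In those mice 3.2% of all genes reached the value of Per2, and 0.366% did in alcohol drinkers.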

How the data were processed

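RNA of nucleus accumbens punches from 45 mice was sequenced after Illumina TruSeq library preparation, per the labels. STAR, FastQC and HTSeq 0.9.1 are named with build GRCm38 (mm10) in the submitters' processing notes. The strand setting of the counting is not given in the sources used here. The authors deposited raw HTSeq read counts per gene symbol, 1 file per mouse, with 5 summary rows that were kept out of library sizes. The no-feature share is the no-feature reads as a percent of gene, ambiguous and no-feature reads, computed from those rows. The type of feature counted is not given in the sources used here, so reads within genes but outside counted features may be among them.

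Counts were filtered with filterByExpr, scaled by TMM and fitted with edgeR 4.0.16 (quasi-likelihood, robust, 1 coefficient per group, all 45 libraries, 15852 genes). The 7 contrasts were CNO against vehicle in each fluid, alcohol against water under each treatment, both averages and the interaction. The p-values were adjusted over all genes by Benjamini-Hochberg, and a gene was called at an adjusted p under 0.05. DESeq2 1.42.0 and limma 3.58.1 (voom) served as alternatives. Levels are TMM-scaled CPM (counts per 1000000 gene counts). Correlations used log2 CPM with a prior count of 2 and group means removed, with 100000 permutations of libraries within groups, two-sided, and Benjamini-Hochberg adjustment over each family of relations. The fits and relations were tested on simulated data.

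The 10 members and the gene lists were chosen with earlier results of these data known. All members are named in each contrast. Of 31 other clock genes, the 3 with the smallest p in each averaged contrast are named, and others are named where their r with a member is given. The genes most like a member were the 3 highest and 1 lowest by r among 13203 genes whose mean log2 CPM reached 1. Tests of a difference in r between groups, and relations with the no-feature share and library size, were added after the data had been seen.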

Additional observations from a re-analysis of the deposited data

How the results depend on the processing

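The count of 0 of 10 clock genes called held in 7 contrasts under up to 11 alternatives (DESeq2 size factors, no filter or a mean CPM of at least 1, DESeq2, voom with sample weights, S-number block, title number or no-feature share as covariate, without alcohol vehicle replicates 5 and 10, also without water vehicle replicate 9, and only the groups compared). Leaving out each library in turn, it ranged from 0 to 1 for averaged CNO, by Cry1 in 2 of 45 fits, and stayed at 0 in the other 6 contrasts. Of the 740 fold changes under those alternatives, 7 moved by more than 1 SE, all with the no-feature share as covariate, and 45 had the opposite sign, none of them called and none over 0.11 in size in the reported fit. The count of correlated pairs was 15 to 21 under a different 11 alternatives and 17 to 20 with single libraries left out, against 18. These 11 were DESeq2 size factors, a prior count of 0.5, Spearman's rho and removal of S-number block, title number, no-feature share, first principal component or neuron marker levels. The others left out alcohol vehicle replicates 5 and 10, these with water vehicle replicate 9, or the 2 libraries farthest from the median. The S-number blocks were made here by cutting the S numbers of the libraries into 8 consecutive runs of 5 or 6. They are not a batch named in the labels. Of the 18 pairs, 12 passed under all 11. Per2 with Cry1 and Per2 with Ciart were the 2 lost when single libraries were left out, and both also failed without the 2 libraries farthest from the median (r = 0.39 and 0.26). Clock with Dbp passed as a negative pair under 5 of the 11 (r = -0.35 to -0.52). Relations with marker lists fell from 20 to 4 by r, and from 24 to 8 by rho, with the no-feature share removed, and relations with title number stayed at 0. No paired analysis was possible because replicate numbers were given in accession order and name samples only.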
